A study of Mus musculus with 8 samples.

Results

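The S100 proteins are small proteins with a pair of EF-hand calcium-binding loops each, and 10 of their genes are described here in tumor epithelium, of 27179 entries in the table of the series: S100a1, S100a4, S100a6, S100a7l2, S100a8, S100a9, S100a10, S100a11, S100a14 and S100a16. They were taken by name, matched on the symbol, and all 10 lie on mouse chromosome 3. EpCAM+ epithelial cells were sorted from antral gastric tumors and their RNA was sequenced in bulk, with 1 library per mouse. Libraries of 4 Gp130FF; Yap1KO mice were set against those of 4 Gp130FF; Yap1WT mice, to find which transcripts depend on Yap1, the coactivator at the end of the Hippo pathway. All 8 mice carried the Gp130Y757F mutation on both alleles, which drives excessive Stat3 signalling and tumors of the antrum. Per the study's methods, all also carried the Tff1:CreERT2 transgene and floxed Yap1 alleles, tumors were taken from mice aged 18 weeks, and tamoxifen removed exon 3 of Yap1 in Yap1KO mice. Tff1 elements direct the Cre to foveolar surface cells. From Tff1 expression the paper infers that other epithelial cells, mucous neck cells among them, were targeted as well. Not every sorted cell need have recombined. The labels place all 8 samples at 3 days after tamoxifen, whereas the methods describe vehicle for Yap1WT mice, so an effect of tamoxifen itself cannot be told apart from that of the deletion if only Yap1KO mice received it.

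Calcium binding opens a hydrophobic face on most S100 dimers, which then hold a target protein such as an annexin, a myosin or p53. Some members also leave the cell and act as alarm signals through Tlr4 and the receptor for advanced glycation end products (Ager), and S100a8 with S100a9 is the best known of these, made in bulk by neutrophils. Other members mark skin-type or glandular epithelium, and several are followed in carcinomas because they bear on adhesion and migration.

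Library totals were 18229945 to 74278015 counts in Yap1KO mice and 27607755 to 77483047 counts in Yap1WT mice. Yap1 stood at 21.5 to 30.1 CPM (counts relative to library size, scaled with edgeR's TMM factors) in Yap1KO libraries, against 65.0 to 79.0 CPM in Yap1WT libraries. Of 13508 genes tested, edgeR's quasi-likelihood test called 476 higher and 316 lower in Yap1KO at a Benjamini-Hochberg adjusted p of 0.05. Leaving out 1 library moved these counts to between 240 and 480 higher and between 156 and 290 lower, the fewest of each without Yap1WT replicate 3. Yap1KO replicate 4 stood apart, at 67.2 on the first principal component where the other 3 Yap1KO libraries lay at 1.05 or below, and it was also the shallowest. Of the epithelial markers, Epcam was at 1544 to 1783 CPM in Yap1KO and 950 to 1050 CPM in Yap1WT libraries, and Krt8 was at 2745 to 3567 CPM in Yap1KO and 3261 to 4176 CPM in Yap1WT libraries.

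The sequence before the transcription start is shown because 3 of the genes with few reads share an element there. It was not found in the windows matched for abundant members, nor in that of S100a9, which also had few reads. RefSeq windows on GRCm38.p6, which hold the 250 bases before the start, were matched for 8 of the 10 genes. S100a10 and S100a14 had no window, so their upstream sequence was not searched. The last 60 bases of each but S100a7l2 follow, 5′ to 3′, with the motif TATAAA, the core of the TATA box, in capitals.
S100a4, chr3:90603710-90603769, plus strand: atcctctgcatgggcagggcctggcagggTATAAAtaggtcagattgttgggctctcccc
S100a8, chr3:90669011-90669070, plus strand: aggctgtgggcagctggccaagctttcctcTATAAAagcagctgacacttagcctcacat
S100a9, chr3:90695722-90695781, minus strand: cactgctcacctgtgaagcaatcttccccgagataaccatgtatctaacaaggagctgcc
S100a6, chr3:90612834-90612893, plus strand: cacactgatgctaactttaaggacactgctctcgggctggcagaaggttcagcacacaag
S100a11, chr3:93520436-93520495, plus strand: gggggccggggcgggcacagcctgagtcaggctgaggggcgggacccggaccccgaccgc
S100a1, chr3:90514331-90514390, minus strand: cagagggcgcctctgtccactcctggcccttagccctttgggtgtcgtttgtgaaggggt
S100a16, upstream start, chr3:90537194-90537253, plus strand: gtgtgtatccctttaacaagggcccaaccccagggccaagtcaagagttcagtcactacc
TATAAA began 31 bases before the start in S100a4 and 30 bases before it in S100a8. S100a7l2, an S100A7-like gene, is given with its whole window because it had the widest difference between the groups. Capitals mark TATAAA, 29 bases before the start, and a match to TGANTCA (the AP-1 motif), 77 bases before it.
S100a7l2, chr3:91090806-91091055, minus strand: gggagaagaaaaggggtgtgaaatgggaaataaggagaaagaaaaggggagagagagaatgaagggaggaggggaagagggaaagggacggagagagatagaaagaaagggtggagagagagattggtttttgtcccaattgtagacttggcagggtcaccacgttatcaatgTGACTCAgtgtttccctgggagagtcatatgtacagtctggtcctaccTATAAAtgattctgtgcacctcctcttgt
The start used for this window lies inside the RefSeq span of the gene, chr3:91088137-91107429, and other starts were not searched. TATAAA was found on either strand in 3 of 8 windows of these genes, where 13% of 27025 windows of all genes and 6.67% of the windows of tested genes held it. Within 40 bases of the start it stood in 2.55% of all windows and 1.67% of those of tested genes. The other motifs searched, on both strands, were CATTCC (the TEAD motif, through which Yap1 reaches DNA), TTCNNNGAA (the STAT motif) and GGGCGG (the GC box). CATTCC was in none of the 8 windows, which do not include S100a14, and in 12.6% of all windows and 10.7% of those of tested genes. TTCNNNGAA was in none of the 8, and in 7.18% of all windows and 6.01% of those of tested genes. GGGCGG was in the windows of S100a9 and S100a11, and in 32.9% of all windows and 58.8% of those of tested genes. TGANTCA was also in the window of S100a11, and in 6.87% of all windows and 4.62% of those of tested genes. For S100a16, which has several starts, these counts use the upstream start. A match of letters is a description of the window and not a bound site.

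S100a14 and S100a7l2 were called lower in Yap1KO tumor cells by edgeR, and none of the 8 genes tested was called higher. Of the 10 genes, 8 passed the filter on low counts (above 0.5 CPM in at least 6 libraries) and were tested, while S100a8 and S100a9 did not. Among the 8, edgeR called 0 higher, where 3.52% of all tested genes were called higher, and 2 lower, where 2.34% were. DESeq2 also called 0 of them higher (6.35% of all genes), as did limma-voom with quantile normalization (4.22% of all genes). At an unadjusted p of 0.05, 2 were higher, S100a10 and S100a11 (11.5% of all genes), and 3 were lower, with S100a16 added to the 2 above (8.96% of all genes). The groups did not overlap in CPM for 2 genes lower in Yap1KO (6.0% of all genes) and for 0 higher (7.18% of all genes). The median log2 fold change over the 8 was 0.06, with 4 above and 4 below 0, beside -0.01 over all genes tested. Bulk RNA cannot tell fewer cells of a type from less RNA per cell, and this holds for every gene below.

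**Figure D1:**
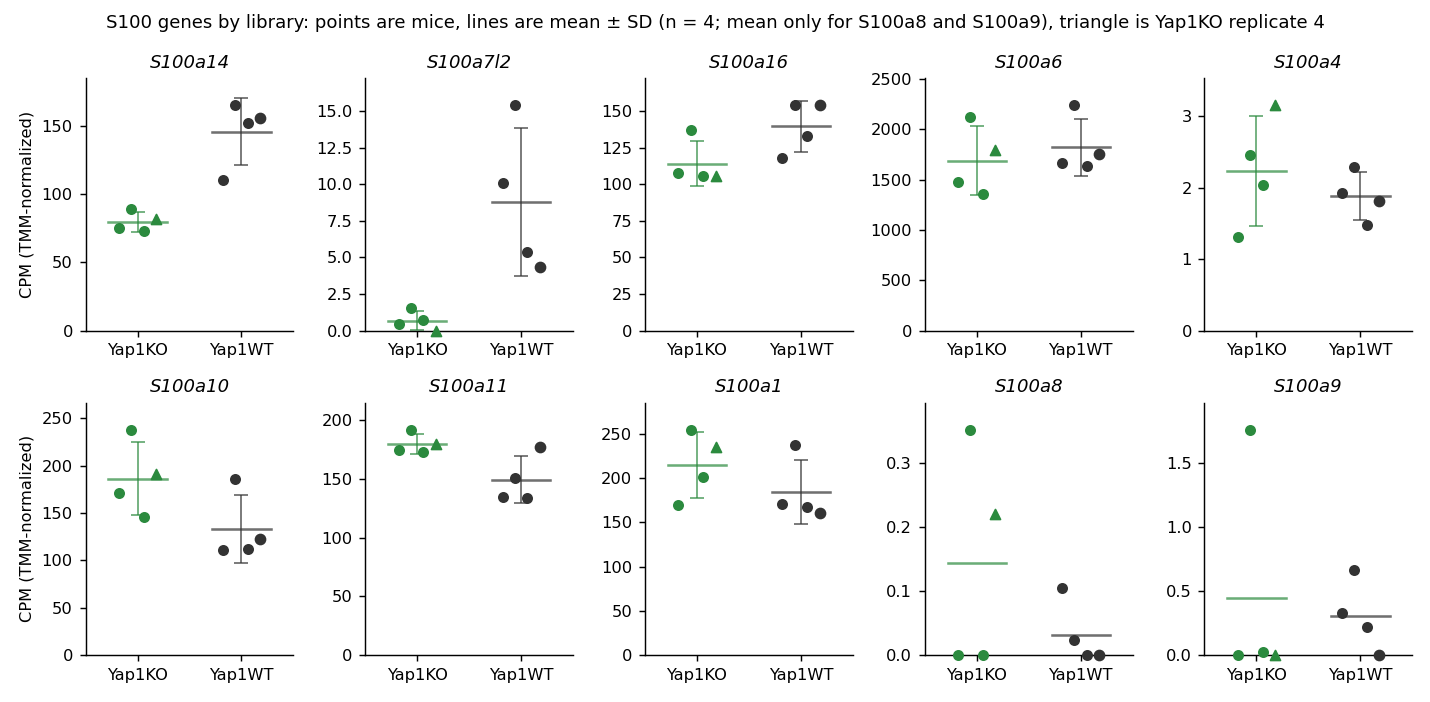
CPM of each S100 gene in each library (1 panel per gene, y axis from 0), with Yap1KO mice left and Yap1WT mice right. Points are mice, lines are means with SD bars (n = 4; mean only for S100a8 and S100a9), and the triangle is Yap1KO replicate 4. S100a14 and S100a7l2 are the panels in which no Yap1KO point reaches the lowest Yap1WT point.

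S100a14 encodes an epithelial member whose second EF-hand has lost residues needed to hold calcium, and human S100A14 is known to bind S100A16. S100a14 (chr3:90526849-90528837, plus strand) was measured at 75.0, 89.0, 73.2 and 81.9 CPM in the Yap1KO libraries, against 110, 165, 152 and 156 CPM in the Yap1WT libraries. All 4 Yap1KO values were below the lowest Yap1WT value, which was that of replicate 1. The means were 79.8 ± 7.19 CPM in Yap1KO and 146 ± 24.6 CPM in Yap1WT (SD, n = 4 each). The log2 fold change was -0.87 with a standard error of 0.13 (edgeR adjusted p = 0.00448), or 1.83-fold lower in Yap1KO. S100a14 was called lower in every one of the 17 other settings run, 8 of which left out a library. Without Yap1KO replicate 4 the log2 fold change was -0.88 (edgeR adjusted p = 0.0178). On the deposited log2 values the exact two-sided permutation p was 0.029, the smallest that 4 against 4 mice can give. Replicates 1 and 2 of each group have lower mouse numbers than replicates 3 and 4, and the difference of mean log2(CPM + 0.5), Yap1KO minus Yap1WT, was -0.72 among the lower and -0.99 among the higher.

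S100a7l2 lies apart from the other members and is named for its likeness to S100A7, psoriasin, an antimicrobial protein of inflamed human skin. It had 25, 48, 55 and 0 reads in the Yap1KO libraries, against 772, 652, 368 and 120 reads in the Yap1WT libraries. As CPM these were 0.468, 1.54, 0.719 and 0 in Yap1KO, against 10.1, 15.4, 5.4 and 4.35 in Yap1WT. The highest Yap1KO library was below the lowest Yap1WT library, and the values of Yap1WT mice themselves varied more than 3-fold. Where replicate 4 of Yap1KO had no read, a count of 3 would be 0.166 CPM at its depth. The log2 fold change was -3.65 with a standard error of 0.77 (edgeR adjusted p = 0.0225), 12.6-fold lower in Yap1KO as fitted. It stayed called without Yap1KO replicate 4 (-3.31, edgeR adjusted p = 0.0191). The call was lost without Yap1KO replicate 1 (edgeR adjusted p = 0.0674), Yap1KO replicate 3 (0.0529), Yap1WT replicate 1 (0.0546) or Yap1WT replicate 2 (0.0607), with log2 fold changes of -3.49, -3.67, -3.58 and -3.24. The difference of mean log2(CPM + 0.5) was -3.21 among replicates 1 and 2 and -2.78 among replicates 3 and 4. The gene passed the filter with 6 libraries, all 4 of Yap1WT and 2 of Yap1KO.

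**Figure D2:**
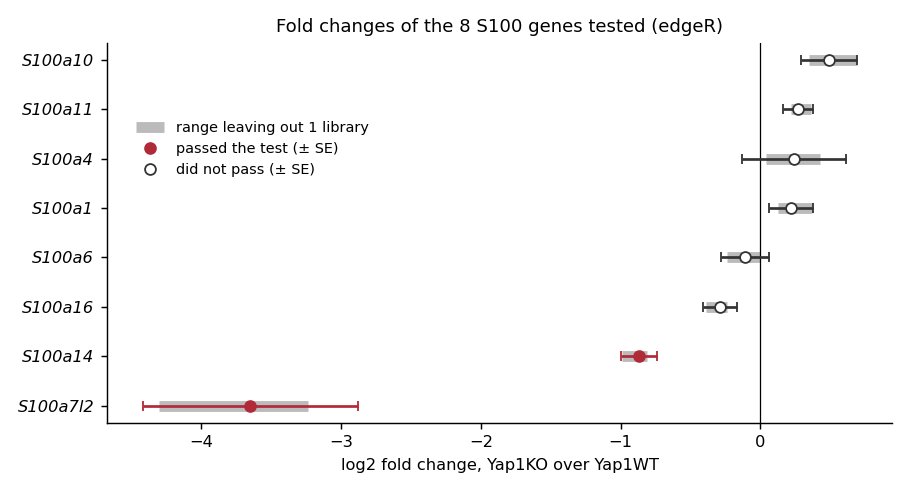
Log2 fold change of Yap1KO over Yap1WT for the 8 S100 genes tested (x axis), with standard errors as bars and the range over the fits that leave out 1 library in grey. S100a7l2 at -3.65 and S100a14 at -0.87 passed the test and the other 6 genes lay between -0.29 and 0.49.

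S100a16, a widely expressed member that promotes fat cell formation in mice, sits 8.4 kb beyond S100a14 on the same strand. It was at 108, 137, 106 and 106 CPM in Yap1KO libraries, against 118, 154, 133 and 154 CPM in Yap1WT libraries. Of the Yap1KO values 3 were below every Yap1WT value, and replicate 2 lay within the Yap1WT range. The log2 fold change of -0.29 (SE 0.12) did not pass (edgeR adjusted p = 0.224). Within each library the ratio of S100a14 to S100a16 was 0.692, 0.651, 0.689 and 0.771 in Yap1KO, against 0.933, 1.08, 1.14 and 1.01 in Yap1WT, so the ranges did not overlap. This ratio was chosen after the values of both genes were known and was given no test.

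S100a10 and S100a11 did not pass the test. S100a10 keeps an open form without calcium, joins annexin A2 at the membrane and serves there as a plasminogen receptor. S100a10 was at 171, 238, 146 and 191 CPM in Yap1KO libraries, against 111, 186, 112 and 123 CPM in Yap1WT libraries. The groups overlapped through replicate 2 of Yap1WT, which lay far above its group. The log2 fold change was 0.49 (SE 0.20, edgeR adjusted p = 0.191), and without Yap1WT replicate 2 it was 0.69 and passed (edgeR adjusted p = 0.0469). S100a11, a partner of annexin A1 that bears on growth and membrane repair, was at 175, 192, 173 and 180 CPM in Yap1KO, against 135, 151, 134 and 177 CPM in Yap1WT. Replicate 4 of Yap1WT overlapped the Yap1KO range from within. S100a11 had a log2 fold change of 0.27 (SE 0.11, edgeR adjusted p = 0.194). On the deposited log2 values, which were quantile normalized, the Yap1KO libraries lay at 8.43 to 8.62 and the Yap1WT libraries at 8.0 to 8.42, with an exact permutation p of 0.029, so that the overlap depended on the scale. Reads of the copy S100a11-ps came to 2 to 36 per library, at most 0.385% of those of S100a11. Anxa2 itself was at 1189 to 2090 CPM in Yap1KO and 1072 to 1537 CPM in Yap1WT (log2 fold change 0.34, edgeR adjusted p = 0.335), and the ratio of S100a10 to Anxa2 was 0.0992 to 0.123 in Yap1KO and 0.0802 to 0.13 in Yap1WT.

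S100a6, calcyclin, which binds a partner of the Siah1 ubiquitin ligase, was the most abundant member. S100a6 was at 1481, 2120, 1359 and 1793 CPM in Yap1KO libraries, against 1663, 2238, 1633 and 1757 CPM in Yap1WT libraries. The ranges overlapped widely, with a log2 fold change of -0.11 (SE 0.17, edgeR adjusted p = 0.77). S100a6 gave 65.9% to 71.7% of the CPM summed over the 10 genes. S100a1, a regulator of calcium cycling best known in heart muscle, was at 170, 255, 201 and 235 CPM in Yap1KO, against 171, 238, 167 and 161 CPM in Yap1WT (log2 fold change 0.22, SE 0.16, edgeR adjusted p = 0.492). The groups overlapped over most of their range. S100a4, which loosens filaments of nonmuscle myosin and is abundant in fibroblasts and migrating cells, was low at 1.31, 2.46, 2.03 and 3.15 CPM in Yap1KO, against 1.93, 2.29, 1.48 and 1.81 CPM in Yap1WT. Its log2 fold change of 0.24 (SE 0.37, edgeR adjusted p = 0.773) turned to -0.18 under limma-voom with quantile normalization, and that of S100a6 to 0.01, so no direction is given for these genes.

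S100a1 and S100a13 lie head to head on opposite strands and their annotated ends overlap by 98 bases, and the library kit does not keep strand. S100a13, which helps release fibroblast growth factor 1 from cells, is not among the 10 genes and was at 57.0 to 87.8 CPM in Yap1KO and 43.7 to 71.8 CPM in Yap1WT. Its log2 fold change was 0.50 (SE 0.18, edgeR adjusted p = 0.149, and 0.0409 with a log2 fold change of 0.67 without Yap1WT replicate 2). The ratio of S100a1 to S100a13 was 2.99, 2.9, 2.67 and 2.93 in Yap1KO libraries, against 3.73, 3.31, 3.25 and 3.69 in Yap1WT libraries. These ranges did not overlap either, though neither gene passed the test, and the ratio was likewise given no test.

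**Figure D3:**
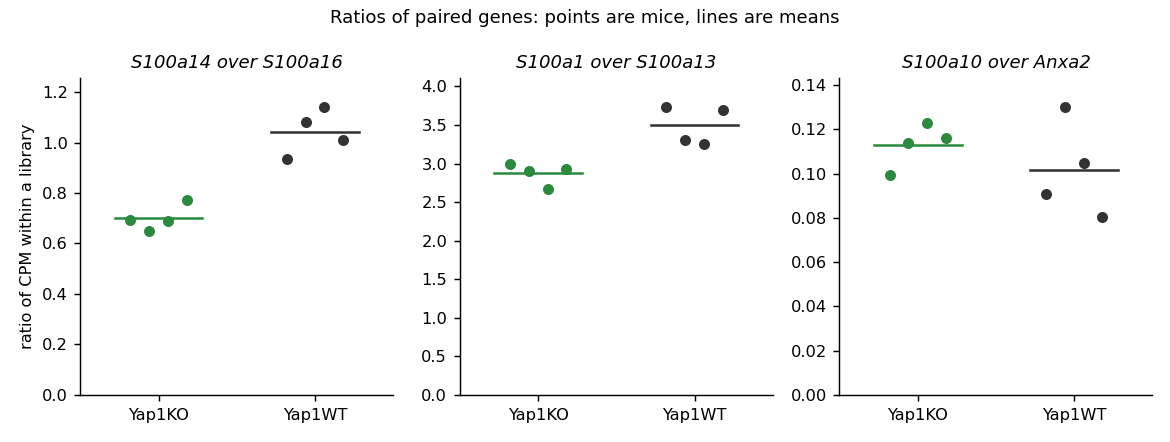
Ratio of CPM within each library (y axis from 0) for S100a14 over S100a16, S100a1 over S100a13 and S100a10 over Anxa2, with Yap1KO left and Yap1WT right. Points are mice and lines are means. The first ratio lies between 0.651 and 0.771 in Yap1KO and between 0.933 and 1.14 in Yap1WT, and the ratio to Anxa2 overlaps between the groups.

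The calprotectin subunits S100a8 and S100a9 were nearly absent. S100a8 had 0, 11, 0 and 4 reads in Yap1KO libraries, against 8, 1, 0 and 0 in Yap1WT libraries. S100a9 had 0, 55, 2 and 0 reads in Yap1KO, against 25, 28, 15 and 0 in Yap1WT. The highest value of either gene was 1.76 CPM, that of S100a9 in Yap1KO replicate 2, and no difference was detectable at these counts. A count of 3 is 0.0392 to 0.166 CPM in Yap1KO libraries and 0.0392 to 0.109 CPM in Yap1WT libraries. Of 12 neutrophil markers 2 were tested, Ltf and Itgam, and neither was called. Camp, Mpo and Elane had no read in any library, and Ly6g reached 0.096 CPM in Yap1KO and 0 CPM in Yap1WT. Mmp9, a protease of neutrophil granules that other cells also make, was at 6.74, 2.3, 10.7 and 0.0553 CPM in Yap1KO, against 2.76, 0.495, 0 and 1.38 CPM in Yap1WT. Cxcr2, a chemokine receptor of neutrophils, was at 0 to 1.4 CPM in Yap1KO and 0 to 0.196 CPM in Yap1WT. Both overlapped between the groups, with 2 Yap1KO libraries above the highest Yap1WT library, and neither passed the filter on low counts. Ltf, which gastric epithelium can also make, gave nearly all of the summed marker level of 264 to 1178 CPM in Yap1KO and 340 to 1451 CPM in Yap1WT. Itgam was at 0.392 to 1.01 CPM in Yap1KO and 0 to 3.49 CPM in Yap1WT.

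Levels were compared between genes on the deposited log2 RPKM, which is scaled to gene length and holds 8 of the 10 genes. S100a6 had a level of 11.23 ± 0.29 in Yap1KO and 11.24 ± 0.18 in Yap1WT (SD, n = 4 each), the 19th highest mean level of 13819 genes. It was above S100a11 in 8 of 8 libraries by a mean difference of 2.89 log2 RPKM. S100a11 and S100a1 came next and did not differ beyond their spread (mean difference 0.02 log2 RPKM, SD 0.25). S100a10 was below S100a1 in 8 of 8 libraries by a mean of 0.42 log2 RPKM, although their ranges over libraries overlapped, and above S100a16 in 8 of 8 by 1.01 log2 RPKM. S100a16 and S100a14 were level in Yap1WT, with a mean difference of 0.00 log2 RPKM, and S100a16 was higher in 4 of 4 Yap1KO libraries by 0.57 log2 RPKM. S100a7l2 and S100a4 were the lowest and changed places. The level of S100a7l2 minus that of S100a4 averaged -1.95 log2 RPKM in Yap1KO, below 0 in 4 of 4 libraries, and 2.03 log2 RPKM in Yap1WT, above 0 in 4 of 4.

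**Figure D4:**
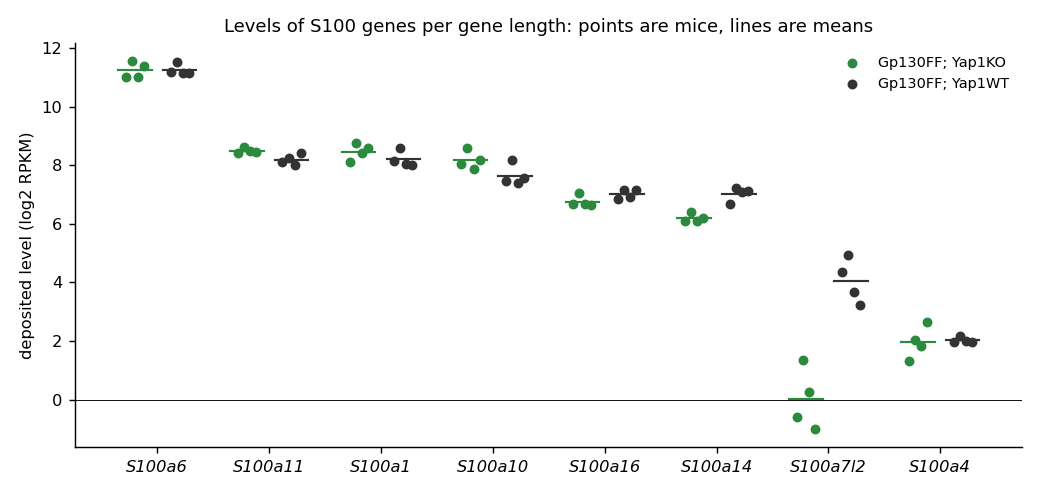
Deposited level in log2 RPKM (y axis) of the 8 S100 genes that hold a value, in order of their mean, with Yap1KO points in green left of Yap1WT points in black. Points are mice and lines are means. S100a6 is highest near 11.23 log2 RPKM, and S100a7l2 and S100a4 exchange order between the groups.

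Within each group most of the genes were highest in the same library. Replicate 2 was the highest library of its group for 7 of the 8 tested genes in Yap1KO, S100a4 being the exception, and for 6 of 8 in Yap1WT, S100a11 and S100a16 being the exceptions. The TMM factor of replicate 2 was the lowest of its group in both, at 0.9648 in Yap1KO and 0.9487 in Yap1WT, against 0.9881 to 1.052 in the other Yap1KO libraries and 1.007 to 1.018 in the other Yap1WT libraries. Whether the factor had a part in these values was not tested.

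The region of chromosome 3 with 250 kb on either side of the 10 genes (chr3:90261034-93814645) held 78 genes of the table. S100a1 to S100a9 fill 184.7 kb, S100a7l2 follows after 392 kb, and S100a11 and S100a10 lie 2413 kb further with 28.8 kb between them. Between these groups lie the cornified envelope genes of the epidermal differentiation complex. Of the 18 tested genes that were not among the 10, edgeR called 0 higher in Yap1KO (3.52% of all genes) and 1 lower (2.34% of all genes). At an unadjusted p of 0.05, 3 were higher (11.5% of all genes) and 4 lower (8.96% of all genes). The called gene was Sprr2a1, a small proline-rich protein of the epithelial barrier, at 512 ± 103 CPM in Yap1KO and 1138 ± 231 CPM in Yap1WT (log2 fold change -1.15, SE 0.18, edgeR adjusted p = 0.00444). Its relatives Sprr2a2 (-0.79, edgeR adjusted p = 0.0709), Sprr2a3 (-0.89, 0.129) and Sprr2b (-0.83, 0.132) were also below 0 and did not pass. Sprr2d (0.64, edgeR adjusted p = 0.754), Sprr2f (1.41, 0.306) and Sprr1a (0.68, 0.0543) were above 0 and did not pass either. The median log2 fold change of the 18 was 0.07, beside -0.01 over all genes. S100a14 at -0.87 thus had neighbours at -0.29 and 0.50 on the log2 scale.

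**Figure D5:**
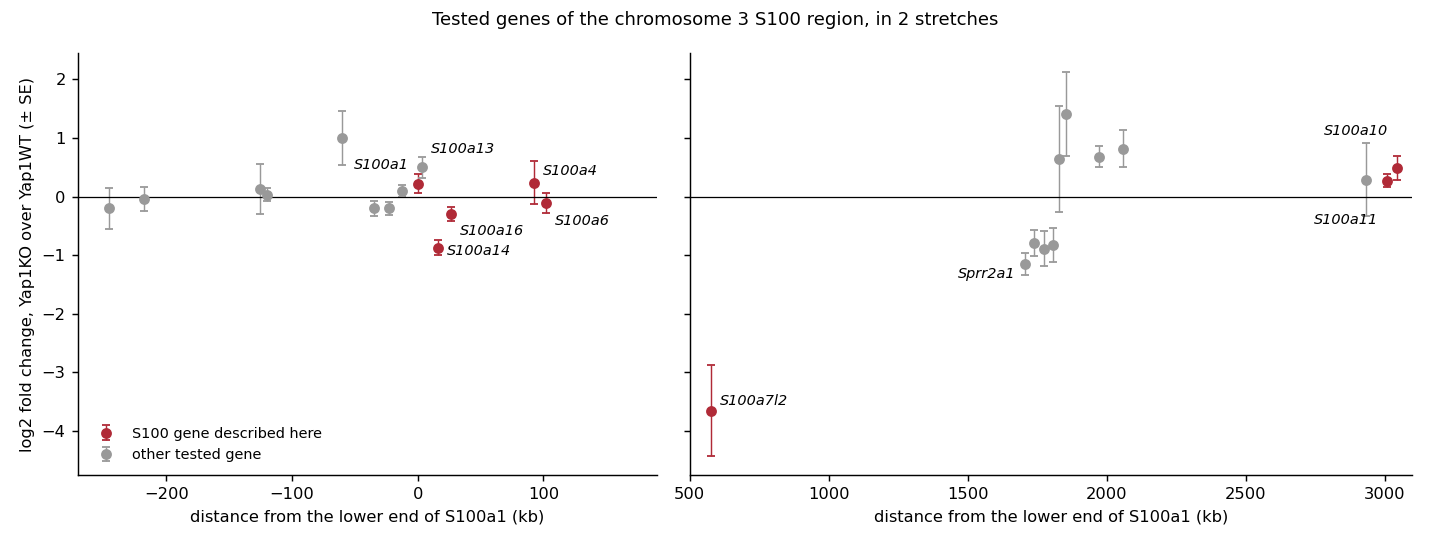
Log2 fold change of Yap1KO over Yap1WT with standard error (y axis) for the 26 tested genes of the chromosome 3 region against their distance from the lower end of S100a1 in kb (x axis), in 2 stretches with different scales. S100 genes described here are red and other genes grey. S100a14 and S100a7l2 stand below the genes nearest to them, and Sprr2a1 is at -1.15.

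The tested genes with the pattern most like that of a member were found over the 8 libraries. The measure was the mean absolute difference of log2(CPM + 0.5), each gene set relative to its own mean. The added 0.5 sets the value of a library without reads, such as Yap1KO replicate 4 for S100a7l2. For S100a14 these were Elovl6, a fatty acid elongase, at a mean difference of 0.0745, Tcf23 at 0.0849 and Vstm5 at 0.0943. Elovl6 had 53.6 CPM in Yap1KO and 89.6 CPM in Yap1WT (log2 fold change -0.74, edgeR adjusted p = 0.00635), Tcf23 had a log2 fold change of -1.04 (0.00284) and Vstm5 of -0.91 (0.018). For S100a7l2 they were Cfap69, a cilia and flagella protein, at 0.508, Capn13, a calpain protease, at 0.529 and Mettl7b at 0.549. Capn13 had 9.96 CPM in Yap1KO and 78.2 CPM in Yap1WT (log2 fold change -2.97, edgeR adjusted p = 0.000206). Cfap69 had 5.28 CPM in Yap1KO and 25.4 CPM in Yap1WT (-2.26, edgeR adjusted p = 0.0128), whereas Mettl7b did not pass (-2.46, edgeR adjusted p = 0.0989). All of these genes were picked for a pattern like that of a gene called lower. Their lower values in Yap1KO therefore follow from the choice and are no separate result. S100a8 and S100a9 sat near 0, and the same rule gave Rabep2, Dis3l2 and Arrdc3 for S100a8 and Pnisr, Metap1d and Ptpn18 for S100a9. None of them was called, and their log2 fold changes ran from -0.19 for Ptpn18 to 0.25 for Arrdc3.

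Of the other S100 family genes, 3 of 8 in the table were tested and 0 called, with 2 higher at an unadjusted p of 0.05. The 2 were S100a13, described above, and S100b, but not S100g, where 11.5% of all genes were higher at that threshold. S100g, an intestinal calcium carrier, was at 5.42 to 52.9 CPM in Yap1KO and 6.26 to 33.7 CPM in Yap1WT (log2 fold change 0.94, edgeR adjusted p = 0.512), and S100b, a glial member, at 11.8 to 28.8 CPM in Yap1KO and 5.37 to 19.6 CPM in Yap1WT (0.91, edgeR adjusted p = 0.244). Of the 7 fused-type genes, which carry an S100 domain before long repeats, Tchh was the only gene tested and was not called (0.29, edgeR adjusted p = 0.845).

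Intracellular partners of S100 proteins showed 1 gene higher and 1 lower of 28 tested, with a median log2 fold change of 0.04. Mdm2, the ubiquitin ligase of p53, both of which S100 proteins bind, was higher, at 66.2 to 103 CPM in Yap1KO and 46.1 to 51.5 CPM in Yap1WT (0.85, SE 0.14, edgeR adjusted p = 0.00539). Ezr, a linker of actin to the membrane, was lower, at 534 ± 65.1 CPM in Yap1KO and 843 ± 175 CPM in Yap1WT (-0.66, edgeR adjusted p = 0.0419). Its call was lost in 7 of the 8 fits without 1 library, with Yap1WT replicate 2 the exception, and edgeR's adjusted p ran from 0.0171 to 0.138 over the 8. Neither Anxa1 (0.12, edgeR adjusted p = 0.634) nor Myh9 (0.19, edgeR adjusted p = 0.505) passed.

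Among receptors of secreted S100 proteins and their signalling, 0 of 14 tested genes were higher and 1 was lower, with a median log2 fold change of -0.01. The lower gene was Tlr4, the receptor through which calprotectin acts, at 34.3 to 43.6 CPM in Yap1KO and 69.3 to 83.0 CPM in Yap1WT (-0.96, SE 0.11, edgeR adjusted p = 0.00102), and it passed without each library in turn. Ager was not tested, at 0.318 to 1.34 CPM in Yap1KO and 0 to 1.04 CPM in Yap1WT. Bsg, a surface receptor that human S100A9 binds, did not pass (-0.14, edgeR adjusted p = 0.548).

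Plasminogen system genes, on which S100a10 acts, gave 0 calls among 7 tested and a median log2 fold change of 0.22, with 1 higher and 1 lower at an unadjusted p of 0.05. The most abundant were Eno1, at 105 ± 9.74 CPM in Yap1KO and 89.9 ± 11.1 CPM in Yap1WT, and Plaur, at 86.3 ± 18.7 CPM in Yap1KO and 105 ± 19.2 CPM in Yap1WT. NADPH oxidase genes, to which calprotectin brings arachidonic acid in neutrophils, gave 0 calls among 7 tested, none at an unadjusted p of 0.05 either, with a median of -0.30. The most abundant were Duox2 (401 ± 47.0 CPM in Yap1KO and 385 ± 69.1 CPM in Yap1WT) and Rac1 (318 ± 22.1 CPM in Yap1KO and 310 ± 35.4 CPM in Yap1WT). The edgeR calls of all these lists stand beside 3.52% higher and 2.34% lower over all genes.

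Some markers of other cells that could enter the sort differed between the groups, and their part in the S100 values was not tested. Over all genes, edgeR called 3.52% higher and 2.34% lower. Endothelial markers had 2 of 10 tested genes called higher, Tie1 (41.0 ± 11.2 CPM in Yap1KO and 15.4 ± 7.62 CPM in Yap1WT) and Vwf (99.3 ± 41.3 CPM in Yap1KO and 31.4 ± 13.9 CPM in Yap1WT), with a median log2 fold change of 1.32 and a summed level of 542 to 1088 CPM in Yap1KO and 166 to 582 CPM in Yap1WT. Each of these calls was lost in 6 of 8 fits without 1 library. Tie1 kept its call only without Yap1KO replicate 1 or Yap1WT replicate 4, and Vwf only without Yap1KO replicate 3 or Yap1WT replicate 4, with edgeR adjusted p up to 0.0973 and 0.101. The most abundant endothelial markers did not pass, Plvap at 322 ± 80.7 CPM in Yap1KO and 123 ± 81.1 CPM in Yap1WT (edgeR adjusted p = 0.065) and Pecam1 at 117 ± 38.8 CPM in Yap1KO and 50.4 ± 25.2 CPM in Yap1WT (edgeR adjusted p = 0.0636). Each of them was called higher under 6 of the 17 other settings, among them without Yap1WT replicate 4 (edgeR adjusted p = 0.0031 for Plvap and 0.0103 for Pecam1). Fibroblast markers had 0 of 9 called and a median of 1.05, with a sum of 351 to 1150 CPM in Yap1KO and 94.8 to 756 CPM in Yap1WT, and S100a4, a gene that fibroblasts express, stayed at 3.15 CPM or less. The most abundant fibroblast markers were the collagen genes Col3a1, at 284 ± 156 CPM in Yap1KO and 138 ± 124 CPM in Yap1WT (edgeR adjusted p = 0.374), and Col1a1, at 144 ± 64.7 CPM in Yap1KO and 62.4 ± 59.5 CPM in Yap1WT (edgeR adjusted p = 0.332). Of 4 tested macrophage genes Cd68 was higher (6.25 ± 1.49 CPM in Yap1KO and 3.01 ± 0.461 CPM in Yap1WT, edgeR adjusted p = 0.0469, lost in 7 of 8 fits without 1 library, Yap1KO replicate 4 the exception, with p up to 0.144). The other 3 had log2 fold changes below 0 and did not pass, and the median of the 4 was -0.26. They were Cd14, the most abundant (41.6 ± 9.13 CPM in Yap1KO and 51.4 ± 18.5 CPM in Yap1WT, -0.31, edgeR adjusted p = 0.529), Mrc1 (-0.22, edgeR adjusted p = 0.729) and Lyz2 (-0.50, edgeR adjusted p = 0.827). The summed macrophage markers reached 43.4 to 74.1 CPM in Yap1KO and 45.7 to 89.5 CPM in Yap1WT. No T or NK cell marker was tested, and their sum was at most 0.256 CPM in Yap1KO and 0.313 CPM in Yap1WT. Squamous markers had 0 of 8 called (median 0.21, sum 34.3 to 96.5 CPM in Yap1KO and 31.9 to 108 CPM in Yap1WT), the most abundant being Krt5 (17.0 ± 12.7 CPM in Yap1KO and 18.7 ± 22.9 CPM in Yap1WT) and Krt13 (19.7 ± 10.6 CPM in Yap1KO and 14.6 ± 3.93 CPM in Yap1WT).

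Markers of epithelial cell types differed as well. Those of foveolar cells had 3 of 8 called lower (2.34% of all genes) and a median log2 fold change of -0.81. At an unadjusted p of 0.05, 6 of the 8 were lower (8.96% of all genes) and 1 was higher (11.5% of all genes). The called genes were Sult1c2 (174 ± 38.2 CPM in Yap1KO and 539 ± 53.5 CPM in Yap1WT), Anxa10 (1203 ± 141 CPM in Yap1KO and 2368 ± 355 CPM in Yap1WT) and Capn8 (10.5 ± 2.83 CPM in Yap1KO and 35.4 ± 7.82 CPM in Yap1WT). The most abundant foveolar markers did not pass, Gkn1 at 10195 ± 2200 CPM in Yap1KO and 15645 ± 4680 CPM in Yap1WT (edgeR adjusted p = 0.172) and Gkn2 at 8663 ± 2940 CPM in Yap1KO and 16729 ± 5920 CPM in Yap1WT (edgeR adjusted p = 0.11). Of the 17 other settings, Gkn1 was called lower under 1 and Gkn2 under 2, among them without Yap1WT replicate 1 (edgeR adjusted p = 0.0426 for Gkn2). The summed level of the 8 was 27452 to 44072 CPM in Yap1KO and 34820 to 67739 CPM in Yap1WT. Mucous neck and metaplastic cell markers had 3 of 6 called higher (3.52% of all genes) and a median of 0.88, with 5 above and 1 below 0. At an unadjusted p of 0.05, 5 were higher (11.5% of all genes) and 0 lower (8.96% of all genes). The genes called higher were Cd44 at 813 ± 176 CPM in Yap1KO and 251 ± 33.2 CPM in Yap1WT, Aqp5 at 338 ± 165 CPM in Yap1KO and 108 ± 34.5 CPM in Yap1WT, and Sox9 at 264 ± 27.5 CPM in Yap1KO and 171 ± 26.7 CPM in Yap1WT. Aqp5 lost its call in 3 fits without 1 library (Yap1KO replicate 4, Yap1WT replicates 2 and 3, edgeR adjusted p at most 0.0523). Sox9 lost it in 5 (Yap1KO replicates 1 and 3, Yap1WT replicates 2, 3 and 4, edgeR adjusted p at most 0.0765). The most abundant markers of this list did not pass, Tff2 at 60920 ± 10800 CPM in Yap1KO and 43224 ± 9990 CPM in Yap1WT (edgeR adjusted p = 0.192) and Muc6 at 3633 ± 1060 CPM in Yap1KO and 1654 ± 615 CPM in Yap1WT (edgeR adjusted p = 0.0543). Tff2 was called higher under 2 of the 17 other settings and Muc6 under 7, among them without Yap1KO replicate 2 (edgeR adjusted p = 0.0202 for Muc6) and without Yap1WT replicate 4 (0.0296 for Muc6). Of 6 general epithelial genes 1 was called higher, Epcam, and 0 lower, with 4 of 6 below 0 and a median log2 fold change of -0.11. At an unadjusted p of 0.05, 2 were higher and 2 lower. Krt19 went the other way from Epcam and did not pass (2601 ± 317 CPM in Yap1KO and 3471 ± 328 CPM in Yap1WT, log2 fold change -0.42, edgeR adjusted p = 0.10). All 4 of its Yap1KO values were below the lowest Yap1WT value. Which of these cells held S100a14 or S100a7l2 was not tested.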

How the data were processed

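RNA of EpCAM+ cells from antral tumors was sequenced from 4 Yap1KO and 4 Yap1WT mice, with a kit that does not keep strand (TruSeq RNA v2). Per the study's methods, the authors mapped paired reads to GRCm38/mm10 by Subread and summarised them on RefSeq genes by featureCounts, and the deposited counts are raw whole numbers. The deposited log2 values, a file for each library, come from voom and quantile normalization by the authors. They are log2 RPKM, though headed FPKM, and the length used is not stated in the sources used here. They hold 13819 genes and share a highest value of 16.43 across libraries. Groups were taken from the genotype label, and 6 further columns of counts, which the labels do not name, were set aside. The methods give the age as the labels do, whereas the study's results text gives a later age. Nothing in the labels says that mice share a litter or batch.

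Of 27179 entries, 1277 without a symbol (0.552% to 0.789% of counts) and 762 pseudogenes were left out, after RefSeq (GRCm38.p6) had given 35 entries a name. The filter kept 13508 genes above 0.5 CPM in at least 6 libraries. The quasi-likelihood F test of edgeR 4.0.16 (R 4.3.3) was run on their counts with TMM factors, p-values were adjusted by Benjamini-Hochberg over all of them, and the common biological coefficient of variation was 0.284. The standard error is the size of the log2 fold change over the square root of F, and CPM carry the SD. Permutation tests were exact and two-sided, on the deposited log2 values (scipy 1.17.1). The other settings were DESeq2 1.42.0, its size factors in edgeR, limma 3.58.1 (voom and trend), other filters and library sizes, a replicate block, a block for replicates 1 and 2 against 3 and 4, and leaving out each library. In counts simulated for Yap1KO against Yap1WT (13287 genes tested), edgeR called 13.8% of the 65 genes set to a 1.5-fold change. At 2-fold it called 52.3% of 65 genes and at 4-fold 86.7% of 60, with 6 calls among unchanged genes. Most of the genes set to 1.5-fold were thus missed. The share called at the abundance of each S100 gene was not tested. Python 3.11.15, pandas 2.3.3 and matplotlib 3.10.9 made the tables and plots.

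The 10 genes and all gene lists were chosen with earlier results of these data known. Every member was named, and from each list up to 4 called genes per direction ranked by p. A list with no call gave its 2 most abundant genes. The 2 most abundant were also taken from each list of markers of other cells, and the 3 genes most alike for each called member and for S100a8 and S100a9. S100a13 falls under this rule as well. Another list of cell markers is not reported here. S100b, Anxa1, Anxa2, Myh9, Ager, Bsg, Mmp9, Cxcr2, Mrc1, Lyz2, the Sprr genes other than Sprr2a1 and single markers at or near 0 were named outside it, after their values were seen.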

Additional observations from a re-analysis of the deposited data

Results flagged for a closer look

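In 4 of 20 groups of 4 mice (10 genes in each genotype), 1 library lay far from the other 3 by Dixon's criterion, the gap to the nearest library over the whole range. Chance alone does so in about 1 of 20 independent groups. The groups here share the same libraries and are not independent, so 4 of 20 cannot be set against that share. All 4 were replicate 2. In Yap1KO replicate 2, S100a9 was at 1.76 CPM (55 reads), where the other Yap1KO libraries were at 0 to 0.0262 CPM, and S100a16 was at 137 CPM, where the others were at 106 to 108 CPM. In Yap1WT replicate 2, S100a1 was at 238 CPM, where the other Yap1WT libraries were at 161 to 171 CPM, and S100a10 was at 186 CPM, where the others were at 111 to 123 CPM. Without Yap1KO replicate 2 the log2 fold change of S100a16 was -0.39 (edgeR adjusted p = 0.0922).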

How the results depend on the processing

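S100a14 was called lower under all 17 other settings, with log2 fold changes of -0.99 to -0.81 and an adjusted p of at most 0.0183. S100a7l2 was called under all 9 settings that kept every library. Leaving out 1 library gave 0 to 1 members called higher and 1 to 2 called lower, and over all genes 240 to 480 called higher and 156 to 290 called lower. DESeq2 called 858 genes higher and 587 lower, against 476 and 316 by edgeR. Same-numbered mice deviated together with correlations of 0.0304, 0.348, 0.0514 and 0.146 for replicates 1 to 4. Only replicate 2 correlated best with its own number. Whether same-numbered samples share more than a number cannot be told from these correlations and was not tested. With the replicate block edgeR called 755 genes higher and 551 lower, 1 member higher (S100a10, log2 fold change 0.50, adjusted p = 0.0152) and 2 lower, while Krt5 turned to 0.08. The block for the series of mouse numbers turned Krt5 to 0.16. Under limma-voom S100a4 turned to -0.18, S100a6 to 0.01, Tchh to -0.31 and Ltf to 0.06, and under limma-trend S100a4 turned to -0.07 and Ltf to 0.02. None of the genes that turned was called under these settings. Leaving out 1 library also turned genes that were not called, over ranges of -0.24 to 0.80 for Tchh, -0.04 to 0.16 for Duox2, -0.50 to 0.72 for Ltf, -1.41 to 0.29 for Itgam and -0.60 to 1.23 for Krt5. The cause of these shifts was not tested. Of the members' log2 fold changes, 68 of 72 values under settings with every library and 59 of 64 without 1 library kept their direction and their side of the threshold. Depth limits S100a8 and S100a9, whose counts were 55 or fewer, and S100a7l2 in Yap1KO.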
